A study of Mus musculus with 6 samples.

Results

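Alcohol and aldehyde dehydrogenases are the enzymes that oxidise alcohols to aldehydes and aldehydes to acids, and 10 of their genes were followed by symbol in cultured mouse hepatocytes given the cytokine TNF. A row was found for 9 of the 10 among the 19764 genes of the deposited table, namely Adh1, Adh4, Adh5, Aldh1a1, Aldh1a7, Aldh1l1, Aldh2, Aldh3a2 and Aldh9a1, and Adh7 was not analysed here. The cells were primary hepatocytes of Bl6/N mice, kept for 16 h in starvation medium with 5 mM glucose. Cells of both groups then received 1 µM corticosterone, which activates the glucocorticoid receptor, and 10 µM WY-14643, an activator of the nuclear receptor PPARα, for 8 h. The 3 TNF libraries had 1 ng/ml TNF in addition and the 3 Control libraries had vehicle. Corticosterone was also in the earlier plating and maintenance media, so every change below is one on top of both ligands, and cells without them were not analysed here. PolyA RNA was sequenced in paired ends.

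In the liver, alcohol dehydrogenases convert ethanol to acetaldehyde in the cytosol, and the mitochondrial enzyme Aldh2 converts acetaldehyde to acetate. The same families oxidise retinol and retinal, formaldehyde, fatty aldehydes and the aldehydes of lipid peroxidation, each with its own preferred enzyme. Hepatocytes are among the cells richest in both families.

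Levels are read counts scaled to library size (CPM), and changes are log2 differences, TNF minus Control, of CPM + 1. Each gene was tested in a limma fit with group as the only term (unpaired) and in a limma fit with the replicate number of the sample titles as a block (blocked), and p-values were adjusted over all 12293 genes tested. A gene is said to have risen or fallen where its blocked adjusted p was under 0.05. By the unpaired fit, which was planned as the main test, 0 of the 9 dehydrogenases tested passed. Nothing in the labels states that the replicates were separate animals or cultures, and p-values then measure only the spread between these libraries, which may be technical.

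Library totals lay between 17612060 and 25114289 reads. The 9 dehydrogenases had between 509 and 21691 reads in any library and all passed the filter on low counts. All 10 hepatocyte markers were present, with summed levels of 35164 to 53710 CPM in Control and 33297 to 48982 CPM in TNF. Most of that sum was Alb, with means of 34932 CPM in Control and 33298 CPM in TNF, so it says little of the others. Cps1, another of the 10, averaged 1975 CPM in Control and 737 CPM in TNF. In the blocked fit 5 of the 10 fell and 0 rose, against 11.2% and 9.40% of all genes tested. Of 10 macrophage markers 9 averaged under 1 CPM, and the list's sum of 144 to 231 CPM in Control and 147 to 233 CPM in TNF was nearly all Cd68. The endothelial sum was 80.2 to 146 CPM in Control and 79.7 to 139 CPM in TNF. The stellate sum, mostly Reln, was 18.3 to 67.6 CPM in Control and 19.8 to 45.3 CPM in TNF. The cholangiocyte sum, mostly Sox9, was 25.5 to 35.2 CPM in Control and 32.5 to 54.5 CPM in TNF. Lymphocyte and neutrophil markers summed to at most 0.387 CPM, with Nkg7 and Ly6g at 0. The part of these shifts in the results below was not tested.

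In the blocked fit 5 of the 9 dehydrogenases fell with TNF (Adh1, Adh5, Aldh1l1, Aldh2 and Aldh3a2) and 1 rose (Aldh1a7), while Adh4, Aldh1a1 and Aldh9a1 did not pass. Over all genes tested, 11.2% fell and 9.40% rose by the same rule. None of the 6 changed by 1.5-fold or more. In the unpaired limma fit 0 of the 9 passed, against 0.431% of all genes (0.358% higher and 0.0732% lower). Only Adh1 had an unadjusted p under 0.05 there (1 of 9, against 1076 of all 12293 genes tested). Unpaired limma-voom on the recovered reads also called 0. The median log2 change of the 9 was -0.15, against -0.01 over all genes tested. Within replicate numbers, 7 of the 9 were lower with TNF in all 3 pairs and 1 was higher in all 3. The 7 include Aldh9a1, whose log2 changes were only -0.0098, -0.0053 and -0.0094. How many of all genes moved the same way in all 3 pairs was not counted, so these counts have no background to be read against. The groups of libraries did not overlap for Adh1 and Adh5, both lower with TNF, as were 6.66% of all genes, while 6.59% of all genes and 0 of the 9 were higher without overlap. For the other 7 genes, the range between replicate numbers exceeded the change with TNF. The authors' deposited table called 1 member higher and 4 lower at its adjusted p of 0.05, against 6.85% and 8.32% of its genes (15.2% in all), and differed from the blocked calls in Aldh1l1, for which it gave an adjusted p of 0.0646. In these bulk samples fewer cells of a type and less RNA per cell cannot be told apart.

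**Figure D1:**
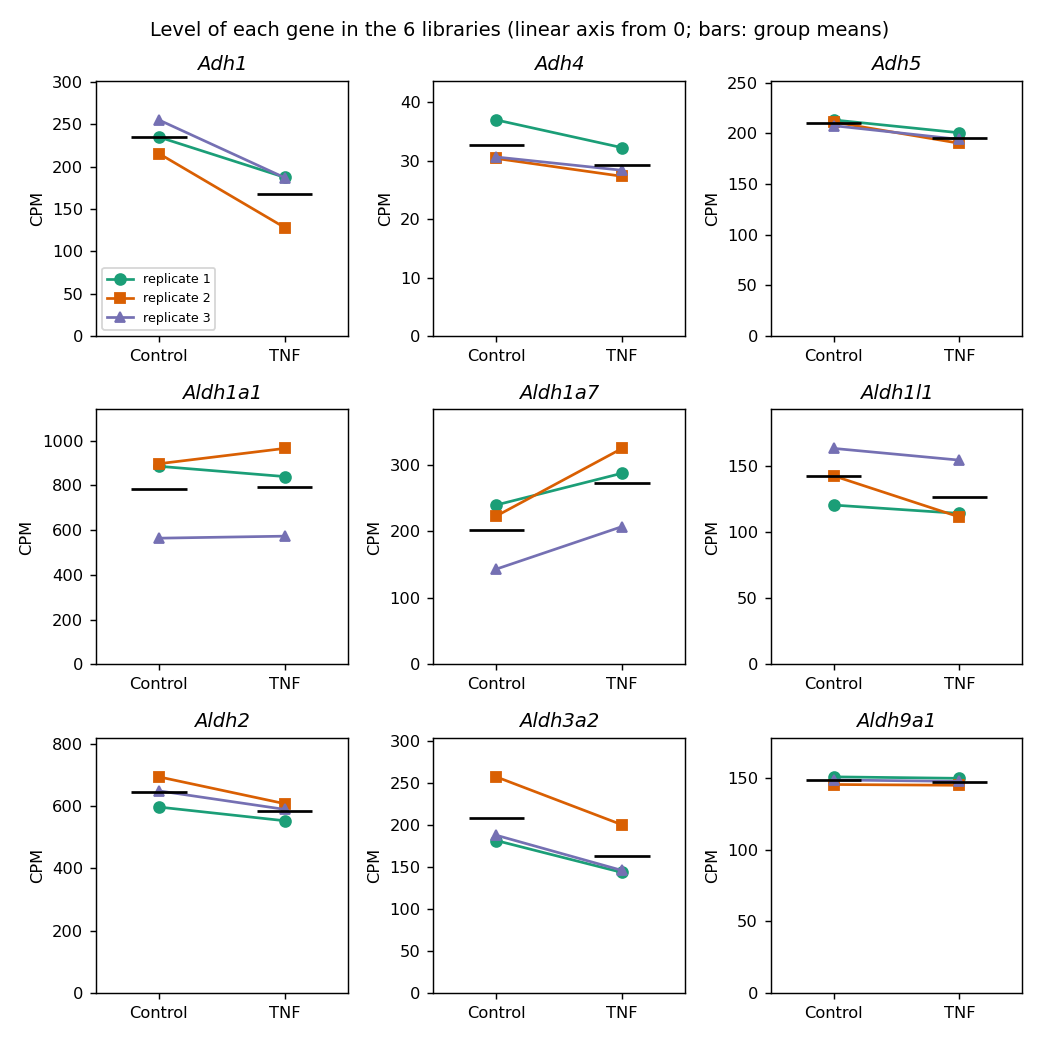
Level of each dehydrogenase gene in the 6 libraries, in CPM on linear axes from 0, with lines joining libraries of the same replicate number and bars at the group means. Adh1 was 216 to 255 CPM in Control and 128 to 187 CPM in TNF, with no overlap, while all 3 lines of Aldh1a7 go up and all 6 points of Aldh9a1 lie between 145 and 151 CPM.

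Adh1 encodes the class I alcohol dehydrogenase, the main hepatic enzyme for ethanol at low concentrations, which also oxidises retinol. The gene spans chr3:138277645-138290691 on the plus strand of mm10. Adh1 was at 235, 216 and 255 CPM in Control 1, 2 and 3 and at 187, 128 and 187 CPM in TNF 1, 2 and 3. The lowest library was TNF 2, and every TNF library lay below every Control library. The mean went from 235 ± 19.9 to 167 ± 34.1 CPM (SD, n = 3 each), or 71.2% of Control. Adh1 fell by 0.51 on the log2 scale (blocked limma SE 0.057, adjusted p = 2.09e-05; unpaired limma SE 0.15, 95% interval -0.87 to -0.15, adjusted p = 0.339). The changes within replicate numbers were -0.33, -0.75 and -0.45, with an SD of 0.22, and without TNF replicate 2 alone the unpaired log2 difference was -0.32. The blocked SE, which borrows variance from other genes, is smaller than this SD would give. An antisense gene on the other strand, Gm16559, overlaps 9284 bases of Adh1, and since the strand setting of the counting is not given in the sources used here, reads of the overlapping genes cannot be told apart.

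Adh4 and Adh5 lie beside Adh1 on chromosome 3, in the order Adh1, Adh6a, Adh4, Adh5 over 178 kb. Adh4, the class II enzyme, which acts on ethanol at high concentrations and on retinol, spans chr3:138415497-138430892. It was at 37.0, 30.4 and 30.6 CPM in the Control libraries and 32.2, 27.3 and 28.3 CPM in the TNF libraries. TNF 1 lay above Control 2 and 3, so the groups overlapped, although each TNF library lay below the Control library of its number. The log2 difference was -0.15 and did not pass (unpaired 95% interval -0.41 to 0.11, adjusted p = 0.896 by limma; blocked 95% interval -0.27 to -0.03, adjusted p = 0.0847).

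Adh5 encodes the class III enzyme, which acts little on ethanol and oxidises S-hydroxymethylglutathione, the adduct of formaldehyde and glutathione, and reduces S-nitrosoglutathione. It spans chr3:138437200-138455499. Adh5 was at 213, 211 and 207 CPM in Control and 200.5, 190.1 and 193.9 CPM in TNF. These were among the tightest groups of the family and did not overlap. Adh5 fell by 0.11 on the log2 scale, from 211 ± 2.88 to 195 ± 5.24 CPM (SD, n = 3 each; limma adjusted p = 0.0246 blocked and 0.714 unpaired). The blocked call was lost without replicate 2 (adjusted p = 0.134), without replicate 3 (0.0559) and with no filter on low counts (0.055).

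Adh6a, which lies between Adh1 and Adh4, had 2 reads in all libraries together. Metap1, which encodes a methionine aminopeptidase and follows Adh5, was at 117 CPM in Control and 124 CPM in TNF, with a log2 difference of 0.08 that did not pass in either limma fit (adjusted p = 0.140 blocked and 0.922 unpaired). The coding sequences of the 3 Adh genes were 62.8% to 66.1% identical to each other, and at most 0.291% of their exonic 50-base stretches occurred in another gene.

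Aldh2 is the mitochondrial enzyme that clears most acetaldehyde from ethanol, and it also handles lipid peroxidation aldehydes. It spans chr5:121566027-121593824 on the minus strand. Aldh2 was at 596, 693 and 648 CPM in Control and 552, 607 and 589 CPM in TNF. The groups overlapped, since TNF 2 was above Control 1, but each TNF library was below the Control library of its number. Aldh2 fell by 0.15 on the log2 scale, from 646 ± 48.5 to 583 ± 27.9 CPM (SD, n = 3 each), to 90.2% of Control (limma adjusted p = 0.00416 blocked and 0.805 unpaired). Without Control replicate 2 the unpaired log2 difference was -0.09. A provisional gene on the other strand, Gm42879, overlaps 130 of its bases.

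Aldh1a1, a cytosolic retinal dehydrogenase, and Aldh1a7, its close relative known as a phenobarbital-inducible aldehyde dehydrogenase, lie tail to tail on chromosome 19 with 49490 bases between them. Aldh1a1 spans chr19:20601982-20643462 on the plus strand and Aldh1a7 spans chr19:20692953-20727556 on the minus strand. Their coding sequences are 91.7% identical. The stretches just before the 2 starts are shown because they are nearly the same in both genes, of which 1 rose and the other did not pass. The 110 bases before each start, from RefSeq on GRCm38.p6 (chr19:20601858-20601967 plus strand and chr19:20727557-20727666 minus strand), are written 5′ to 3′ with bases identical in both in capitals.
Aldh1a1: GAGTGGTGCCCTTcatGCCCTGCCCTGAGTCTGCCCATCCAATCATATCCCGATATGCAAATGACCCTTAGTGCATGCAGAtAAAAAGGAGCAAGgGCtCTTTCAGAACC
Aldh1a7: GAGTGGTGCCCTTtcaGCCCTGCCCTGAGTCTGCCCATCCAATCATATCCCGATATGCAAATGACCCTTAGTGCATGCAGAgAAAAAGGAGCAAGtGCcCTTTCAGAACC
Of the 110 bases, 104 are identical (94.5%), and the letters CCAAT lie in the identical part. The length of 110 was set by where the alignment ran without gaps, so this share does not describe bases farther from the starts. Of the 2 RefSeq windows of Aldh1a1, the one nearest the start of its span was used.

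Aldh1a1 was at 886, 897 and 564 CPM in Control and 840, 966 and 573 CPM in TNF. Replicate 3 was the lowest of both groups, and the spread between numbers was far larger than any difference between groups. The means were 783 ± 189 and 793 ± 200 CPM (SD, n = 3 each), and the log2 difference of 0.02 did not pass (95% interval -0.55 to 0.59 in the unpaired and -0.06 to 0.10 in the blocked limma fit; adjusted p = 0.999 and 0.797). Its direction was not stable, as the sign turned without Control replicate 3 (-0.20), without TNF replicate 1 (-0.04) and without TNF replicate 2 (-0.14).

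Aldh1a7 was at 239, 223 and 143 CPM in Control and 287, 324 and 207 CPM in TNF. As for Aldh1a1, replicate 3 was lowest in both groups, so the groups overlapped. Each TNF library was above the Control library of its number, by 0.26, 0.54 and 0.53 on the log2 scale. Aldh1a7 rose by 0.44, from 202 ± 51.5 to 273 ± 60.0 CPM (SD, n = 3 each), to 135% of Control (blocked limma SE 0.047, adjusted p = 1.03e-05; unpaired limma SE 0.23, 95% interval -0.09 to 0.98, adjusted p = 0.708). As for Adh1, the blocked SE is smaller than the SD of the 3 changes within numbers (0.16) would give. Without Control replicate 3, the lowest library, the unpaired log2 difference was 0.21. Of the exonic 50-base stretches, 7.49% of those of Aldh1a7 and 3.06% of those of Aldh1a1 occur in both genes, so the split of some reads is uncertain. What part of the counts this touches was not measured, since the counted lengths also cover introns.

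The ratio of Aldh1a1 to Aldh1a7, which removes what a library does to both genes alike, was 3.69, 4.01 and 3.92 in Control and 2.92, 2.97 and 2.76 in TNF. The groups of ratios did not overlap and differed by -0.43 on the log2 scale, with an SD of 0.063 in Control and 0.055 in TNF. The exact two-sided permutation test gave p = 0.1, the smallest that 3 against 3 libraries allow, and 0.3 after adjustment over 6 ratios. The ratio of Adh1 to Adh5 was 1.10, 1.02 and 1.23 in Control and 0.935, 0.675 and 0.964 in TNF, again without overlap (log2 difference -0.39, exact permutation p = 0.1, adjusted 0.3). Without TNF replicate 2 that difference was -0.23. The other 4 ratios had exact permutation p-values of 0.2 to 0.5 and overlapping groups; of these, Aldh2 to Aldh9a1 differed by -0.14, Adh1 to Adh4 by -0.36, Adh1 to Aldh2 by -0.36 and Aldh2 to Aldh1a1 by -0.16. Without TNF replicate 2 the difference was -0.22 for Adh1 to Adh4 and -0.15 for Adh1 to Aldh2, and without Control replicate 2 it was -0.07 for Aldh2 to Aldh9a1. Without Control replicate 3 that of Aldh2 to Aldh1a1 turned to 0.06. Within replicate numbers all 6 ratios were lower with TNF in 3 of 3 pairs, for which an exact sign-flip test gives p = 0.25, the smallest that 3 pairs allow. The 6 ratios share Adh1, Aldh2 and Aldh1a1, and the choice of which gene is on top sets the sign. That all 6 were lower is therefore not the agreement of 6 separate results.

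**Figure D2:**
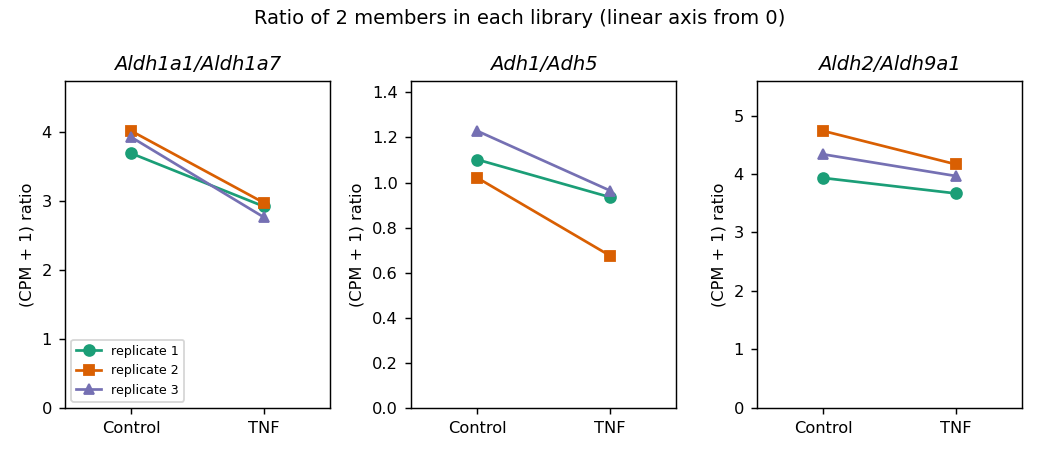
Ratios of 2 dehydrogenase genes in each library, computed on CPM + 1 and drawn on linear axes from 0, with lines joining libraries of the same replicate number. The ratio of Aldh1a1 to Aldh1a7 was 3.69 to 4.01 in Control and 2.76 to 2.97 in TNF, and that of Aldh2 to Aldh9a1 overlapped between groups.

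Aldh3a2, the fatty aldehyde dehydrogenase of the endoplasmic reticulum and peroxisome, spans chr11:61244752-61267186 on the minus strand. Aldh3a2 was at 182, 258 and 188 CPM in Control and 144, 200 and 146 CPM in TNF. Replicate 2 was the highest in both groups, which made the groups overlap. The changes within numbers were -0.34, -0.36 and -0.36, with an SD of 0.014. Aldh3a2 fell by 0.35 on the log2 scale, from 209 ± 42.1 to 163 ± 32.1 CPM (SD, n = 3 each), to 78.1% of Control (limma adjusted p = 2.62e-06 blocked and 0.667 unpaired). Without Control replicate 2, the highest library, the unpaired log2 difference was -0.19.

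The promoters of Adh1 and Aldh3a2 are shown because, among the 9 members, these were the alcohol and the aldehyde dehydrogenase gene that fell the most. The 250 bases before each RefSeq start on GRCm38.p6 (chr3:138277335-138277584 plus strand for Adh1 and chr11:61267187-61267436 minus strand for Aldh3a2) are written 5′ to 3′ with CpG dinucleotides in capitals.
Adh1: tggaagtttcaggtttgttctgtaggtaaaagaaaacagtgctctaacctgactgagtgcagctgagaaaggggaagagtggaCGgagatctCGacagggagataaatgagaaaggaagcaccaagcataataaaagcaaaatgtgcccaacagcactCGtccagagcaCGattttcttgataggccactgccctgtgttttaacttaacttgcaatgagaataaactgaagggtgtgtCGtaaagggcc
Aldh3a2: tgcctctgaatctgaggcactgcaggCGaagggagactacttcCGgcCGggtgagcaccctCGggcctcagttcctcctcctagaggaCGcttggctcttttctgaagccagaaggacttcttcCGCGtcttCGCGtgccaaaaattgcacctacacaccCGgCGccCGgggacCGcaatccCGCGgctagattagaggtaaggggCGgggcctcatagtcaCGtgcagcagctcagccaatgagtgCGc
Adh1 has 5 CpG dinucleotides in this stretch and Aldh3a2 has 18. The RefSeq start of Adh1 lies 60 bases before the start of its span given above. In windows of 300 bases (250 before and 50 after the start), CpG counts were 6 for Adh1, 1 for Adh4, 3 for Adh5, 1 each for Aldh1a1 and Aldh1a7, 9 each for Aldh1l1 and Aldh9a1 and 21 for Aldh3a2, against a median of 7 over 32851 RefSeq windows. RefSeq windows were matched for these 8 genes, and that of Aldh2 was not among them.

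Short motifs were searched on both strands of the 8 windows. CCAAT was in 6 of 8 windows (37.4% of all windows hold it), and TGANNNNGC, the core of the antioxidant response element, was in 6 of 8 (41.3%). TATAAA was in those of Adh5 and Aldh1a7 (13.6%). A loose form of the NF-κB site was in that of Adh5 (20.7%), TTGCNNAA, a C/EBP-type motif, in that of Aldh1l1 (10.8%) and TGTTCT, the core of the glucocorticoid receptor element, in that of Adh1 (19.0%). The longer PPAR element, in both forms searched, and the HNF1 site were in 0 of 8 (at most 0.207% of all windows hold any of them). These matches describe letters in these windows and no bound factor.

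Aldh1l1, the cytosolic enzyme that oxidises formyltetrahydrofolate, spans chr6:90550848-90599171. It was at 120, 142 and 163 CPM in Control and 114, 111 and 154 CPM in TNF. Replicate 2 moved the most, with changes within numbers of -0.08, -0.35 and -0.08 and an SD of 0.16. As for Adh1, the blocked limma SE (0.049) is smaller than this SD would give. Aldh1l1 fell by 0.17 on the log2 scale, from 142 ± 21.4 to 126 ± 24.0 CPM (SD, n = 3 each; limma adjusted p = 0.0229 blocked and 0.939 unpaired). Without replicate 2 the log2 difference was -0.08 with a blocked adjusted p of 0.258, and with no filter on low counts the adjusted p was 0.12, so this call rested on replicate 2. With each library left out in turn, the unpaired log2 difference ranged from -0.32 without TNF replicate 3 to -0.06 without Control replicate 3. The antisense gene Gm15756 overlaps 2475 of its bases, with the limit given for Adh1.

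Aldh9a1 oxidises trimethylaminobutyraldehyde in carnitine synthesis and aminobutyraldehyde, and spans chr1:167349991-167368530. It was at 151, 146 and 149 CPM in Control and 150, 145 and 148 CPM in TNF. These 6 libraries were within a few CPM of each other, whereas Aldh1a1 in the same libraries ranged from 564 to 966 CPM. The log2 difference was -0.01 and did not pass, with a 95% interval of -0.14 to 0.12 in the unpaired and -0.08 to 0.06 in the blocked limma fit (adjusted p = 0.999 and 0.901).

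**Figure D3:**
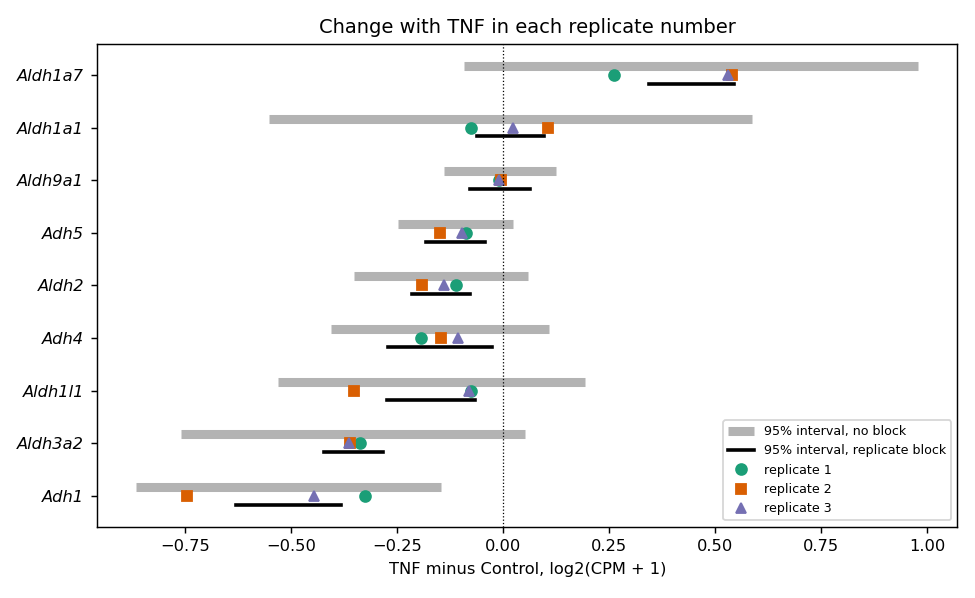
Change with TNF of each dehydrogenase gene, as the log2 difference of CPM + 1 for each replicate number (points), with the 95% intervals of the unpaired fit (grey bars) and the blocked fit (black lines). The points of Aldh3a2 lie between -0.36 and -0.34, and those of Adh1 between -0.75 and -0.33.

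On the scale of CPM per kilobase of counted span, the Control levels were led by Aldh2 (23.2 ± 1.74, SD, n = 3), Aldh1a1 (18.9 ± 4.56) and Adh1 (18.0 ± 1.52). Aldh1a1 did not differ from its neighbours in this order beyond its spread. Adh5 (11.5), Aldh3a2 (9.32), Aldh9a1 (8.00), Aldh1a7 (5.83), Aldh1l1 (2.94) and Adh4 (2.12) followed. The counted length of every member equals its whole span, introns included, although how reads were counted is not given in the sources used here. Per kilobase of GENCODE exon Aldh1a1 came first, with 159 ± 38.3 CPM per kilobase against 126 ± 9.46 for Aldh2 and 105 ± 8.89 for Adh1. If intron reads are in the counts, that scale divides them by exon length alone, so its order is uncertain. Adh4 was the lowest on both scales.

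Around the dehydrogenases, 106 listed genes of the same families and pathways were examined, chosen like the members with earlier results of these data known. Of 91 tested, 32 fell and 9 rose in the blocked fit, a share of 45.1% called against 20.6% of all genes (11.2% fell and 9.40% rose). In the unpaired limma fit 0 of the 91 passed, and 0 passed in limma-voom. Unadjusted p was under 0.05 in that limma fit for 20 of the 91, against 1076 of all 12293 genes tested. Their median log2 change was -0.11. Below, log2 changes are those of genes past the blocked threshold unless said otherwise, and where leaving out a replicate number ended a call, the blocked limma adjusted p without that number is given.

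Among other genes of the families, 5 of 11 tested fell and 2 rose, or 63.6% called against 20.6% of all genes. Aldh8a1, a cytosolic enzyme of kynurenine breakdown, was at 24.4, 27.6 and 19.0 CPM in Control and 14.1, 10.1 and 7.34 CPM in TNF. No TNF library reached the lowest Control library. Aldh8a1 fell by 1.12 (blocked adjusted p = 3.7e-06; unpaired limma adjusted p = 0.124), the largest change of any Adh or Aldh gene tested here. Aldh4a1, of proline breakdown, fell by 0.40, Aldh6a1, of valine breakdown, fell by 0.34 and Aldh7a1, of lysine breakdown, fell by 0.19. Aldh16a1 fell by 0.21, and its log2 change was -0.14 without replicate 2 (adjusted p = 0.165). Adhfe1, an iron-containing hydroxyacid transhydrogenase counted over 12787 of its 29923 bases, rose by 0.39, and Aldh18a1, of proline synthesis, rose by 0.15 (adjusted p = 0.0599 without replicate 1 and 0.0643 without replicate 2).

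Of the other ethanol and acetate enzymes, 2 of 4 fell and 0 rose, or 50% called against 20.6% of all genes. With the block, limma had 0 of the 4 higher before adjustment of p, at 0.05, against 1741 of all 12293 genes tested. Blocked limma-voom called 0 of the 4 higher, against 1156 of all 12293. With 4 genes tested, a count of 0 says little. The catalase gene Cat fell by 0.15 (adjusted p = 0.0883 without replicate 1) and Acss3, a mitochondrial acyl-CoA synthetase, fell by 0.62 from 2.78 CPM. Cyp2e1, the microsomal ethanol oxidase, was at 164, 505 and 803 CPM in Control and 165, 401 and 802 CPM in TNF, so the numbers differed far more than the groups, and its log2 difference of -0.11 did not pass (limma adjusted p = 0.177 blocked and 0.999 unpaired). That outcome turned on the replicate number left out, with a blocked log2 difference of -0.17 (adjusted p = 0.00307) without replicate 1, 0.00 (0.961) without replicate 2 and -0.16 (0.0397) without replicate 3.

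Among aldehyde and ketone reductases, which run the reaction in the other direction, 3 of 16 fell and 1 rose. The share called, 25%, was near the 20.6% of all genes. Cbr3, a carbonyl reductase, rose by 0.67 (84.0, 27.2 and 30.2 CPM in Control; 106, 53.7 and 49.9 CPM in TNF). Akr1c20 fell by 0.66, Akr7a5 fell by 0.26 and Dcxr fell by 0.30, the last losing its call when replicate 1 (adjusted p = 0.0614) or replicate 2 (0.199) was left out. How far reads of Akr1c20 could be shared with its paralogs was not measured.

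In retinoid handling, 8 of 21 tested genes fell and 0 rose, or 38.1% called against 20.6% of all genes. With the block 0 of the 21 were higher before adjustment of p, at 0.05, in limma, against 1741 of all 12293 genes tested. In blocked limma-voom 0 of the 21 were called higher, against 1156 of all 12293. Dhrs3, which reduces retinal to retinol, was at 19.8, 19.4 and 14.6 CPM in Control and 14.2, 8.58 and 7.29 CPM in TNF, with no overlap, and fell by 0.82. Bco2, a carotenoid cleavage enzyme, fell by 0.54, and Rdh7, a retinol dehydrogenase, fell by 0.49. Rarb, a retinoic acid receptor, fell by 0.46 (adjusted p = 0.0731 without replicate 2). The other retinoid receptors tested, Rara and Rarg, had log2 differences of -0.12 and 0.17 that did not pass.

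Of 19 folate one-carbon genes, 4 fell and 2 rose, or 31.6% called against 20.6% of all genes. Of these 19, 9 were called without replicate 1 (47.4%, against 19.3% of all genes) and 5 without replicate 2 (26.3% against 14.7%). Without replicate 3, 4 were called (21.1% against 18.2%), and with no filter on low counts 3 were (15.8% against 10.4%). Ftcd, which feeds histidine carbon into folate, fell by 0.40, and Mthfd1, the cytosolic trifunctional enzyme, fell by 0.17. Amt, of the glycine cleavage system, fell by 0.23 (-0.14, adjusted p = 0.154 without replicate 3), and Shmt1, a serine hydroxymethyltransferase, fell by 0.16 (adjusted p = 0.0672 without replicate 1 and 0.166 without replicate 2). Mthfd2, a mitochondrial enzyme of the same pathway, rose by 0.33, and Mthfd1l, another, rose by 0.16 (0.10, adjusted p = 0.210 without replicate 3). Aldh1l2, the mitochondrial relative of Aldh1l1, had a log2 difference of 0.21 that did not pass (limma adjusted p = 0.0833 blocked and 0.812 unpaired), but did so without replicate 1 (0.28, blocked adjusted p = 0.0272) and was 0.11 without replicate 3 (adjusted p = 0.453).

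Among 7 formaldehyde and fatty aldehyde genes, 3 fell and 3 rose, or 85.7% called against 20.6% of all genes. Agmo, which yields fatty aldehydes from ether lipids, fell by 0.49 and Hacl1, which yields them from 2-hydroxy acids, fell by 0.44. Phyh, which feeds phytanic acid into that cleavage, fell by 0.18. Sgpl1, which yields hexadecenal from sphingosine phosphate, rose by 0.20. Esd, which acts after Adh5 in formaldehyde removal, rose by 0.11, a call lost on leaving out any of the 3 numbers (adjusted p = 0.0567, 0.103 and 0.0830). Far1, which reduces fatty acyl-CoA, rose by 0.46 (adjusted p = 0.0837 without replicate 2 and 0.0780 without replicate 3) and was counted over 30093 of 57055 bases. In carnitine synthesis, 2 of 3 genes fell (66.7% called, against 20.6% of all genes). Of these 2, Bbox1, the last enzyme, fell by 0.62 and the other was Shmt1. Of the 3 genes, 1 was called without replicate 1 (33.3%, against 19.3% of all genes) or without replicate 2 (33.3% against 14.7%).

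Of 14 transcription factors known to act on promoters of this kind, 7 fell and 1 rose, or 57.1% called against 20.6% of all genes. Without replicate 2, 5 of the 14 were called, or 35.7% against 14.7% of all genes. Nr1i3, the receptor CAR, was at 8.12, 17.3 and 13.3 CPM in Control and 3.54, 6.49 and 3.40 CPM in TNF, with no overlap. It fell by 1.33 and was counted over 3833 of its 4876 bases. Hnf4a, a hepatocyte master regulator and one of the hepatocyte markers above, fell by 0.43, from 565 ± 54.2 to 418 ± 36.1 CPM (SD, n = 3 each), and Nr2f2 fell by 0.51. Nfe2l2, which encodes NRF2, rose by 0.23. Ppara and Nr3c1, the receptors of the ligands given to both groups, had log2 differences of 0.09 and -0.07 that did not pass (blocked limma adjusted p = 0.117 and 0.235).

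**Figure D4:**
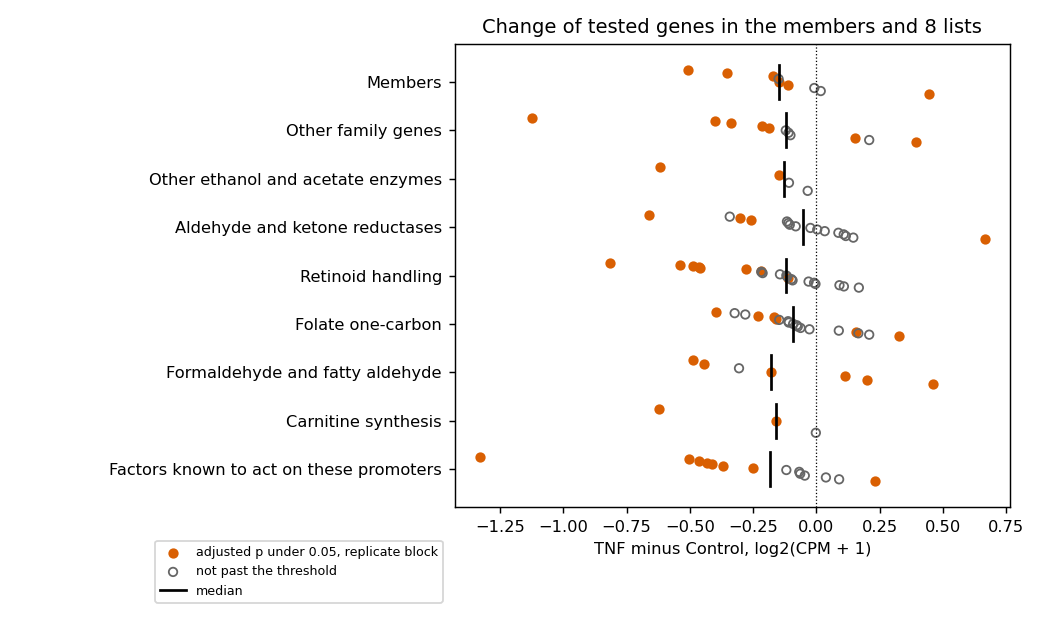
Log2 change with TNF (CPM + 1) of each tested gene in the dehydrogenases and the 8 lists, with genes past the blocked threshold filled, others open and a bar at each median. The farthest points to the left are Nr1i3 at -1.33 and Aldh8a1 at -1.12, and the farthest to the right is Cbr3 at 0.67.

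Of the tested genes next to a dehydrogenase on the chromosome that are not members themselves, Klf15 alone passed in the blocked fit. This transcription factor gene, 75638 bases before Aldh1l1, fell by 0.61, from 64.0 to 41.9 CPM (limma adjusted p = 1.18e-06 blocked and 0.233 unpaired), whereas Slc41a3 on its other side had a log2 difference of 0.17 that did not pass (limma adjusted p = 0.228 blocked). Aldh3a1, the neighbour of Aldh3a2, averaged 0.049 CPM in both groups, under the 3 reads that a count of 0 allows.

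Genes with the most similar pattern over the 6 libraries were found by the root mean square difference of centred log2 values among 8800 genes of at least 10 CPM. For Adh1 these were Tspan33 (0.091), Pde4c (0.092), Hes6 (0.100), Ccdc152 (0.100) and Cep250 (0.111), against a median of 0.353 over all. For Aldh2 they were Eif2ak1 (0.020), Naglu (0.024), Hltf (0.024), Zmiz2 (0.024) and Hp1bp3 (0.025), against a median of 0.147. These distances are a description over 6 libraries that share their group and number structure.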

How the data were processed

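The 6 libraries (3 Control, 3 TNF) were grouped and numbered by their titles. Reads were aligned with STAR 2.6.1a to mm10 (per the submitters' processing notes), and how they were then counted, with which strand setting and annotation, is not given in the sources used here. Deposited per-library values are log2 CPM including a prior of the authors, per the file headers and the values, which share a floor of -3.35. With the floor subtracted on the linear scale, 100% of 118584 values were whole reads within 1e-06, which recovered the counts behind them. The authors' deposited table also gives, per gene, p-values, a log2 fold change and a score (likelihood ratio), from a model that is not stated.

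Tested genes had at least 15 reads in total and 10 (at the depth of the median library) in 3 libraries, which left 12293 tested and 7471 not tested. limma 3.58.1 in R 4.3.3 was run with a trended prior on log2(CPM + 1), two-sided, with Benjamini-Hochberg adjustment, and the scripts were tested on simulated data. The log2(CPM + 1) scale understates changes of low genes. Same-numbered libraries deviated together across genes (correlations 0.784, 0.789 and 0.793; others -0.472 to -0.335), so by rule the numbers pair the samples, although the labels name no shared animal or day. The pairing rests on the titles' numbers, and blocked values are given because the count of calls differed by far more than 1.5 times. A count of 0 allows up to 3 reads, 0.124 to 0.166 CPM, for counting error only.

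Members and gene lists were chosen with earlier results of these data known. Named genes are the members, up to 4 genes per list past the blocked threshold by size of change (all where a count of 5 or fewer needs them), neighbours, and the 5 nearest patterns of Adh1 and Aldh2; Cyp2e1, Rara, Rarg, Aldh1l2, Ppara and Nr3c1 were named for their roles after their values were seen. Ratios were tested with scipy 1.17.1. Promoter windows are RefSeq on GRCm38.p6. For each gene the window nearest the start of its deposited span was used, and the 2 starts lay up to 60 bases apart. Alternatives were limma-voom, other scalings, filters and pseudocounts, a fold threshold, and leaving out libraries.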

Additional observations from a re-analysis of the deposited data

How the results depend on the processing

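The replicate block decided most calls. The count of genes called was 53 without it and 2530 with it; with the block and 1 other choice changed it was 2520 by limma-voom, 2572 with median-of-ratios scaling, 1743 with no filter, 2497 with a pseudocount of 0.1, 2498 with a pseudocount of 5 and 280 with a fold of at least 1.5. Without the block it was 31 with no filter and 9 to 30 when each library was left out, and with the block 1792 to 2309 (2158 without replicate 3) when a replicate number was left out. Of the 9 members, 0 were called without the block and 6 with it: 6 by limma-voom, with median-of-ratios scaling and with either pseudocount, 4 with no filter, and 4 to 6 when a replicate number was left out. Of the 91 pathway genes, 0 were called without the block and 41 with it: 40 by limma-voom, 41 with median-of-ratios scaling, 28 with no filter, 40 and 41 with pseudocounts of 0.1 and 5, 32 to 39 (37 without replicate 3) when a replicate number was left out and 7 with the fold threshold.

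With the block, Adh1, Aldh1a7, Aldh2 and Aldh3a2 were past the adjusted p threshold in 8 of 8 alternatives that set no fold threshold, Aldh1l1 in 6 and Adh5 in 5, and 0 of the 9 members passed when a fold of at least 1.5 was also required. The sign turned for Aldh1a1 without Control replicate 3 (-0.202), TNF replicate 1 (-0.0407), TNF replicate 2 (-0.141) and, with the block, replicate 2 (-0.0271), and its range with 1 library left out was -0.202 to 0.234. It turned for Aldh9a1 with median-of-ratios scaling (0.00198 in both fits), without Control replicate 1 (0.00394) and without TNF replicate 2 (0.00419), with a range of -0.0219 to 0.00419, and for the ratio of Aldh2 to Aldh1a1 without Control replicate 3 (0.0595), with a range of -0.389 to 0.0595. The cause was not tested. With 3 libraries a group, the ratio tests could not pass 0.05.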
